A study of Mus musculus with 6 samples.

Results

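Transcripts of 8 genes that act with the androgen receptor were followed in the whole anterior prostate (AP) of mice with and without forced Notch1 signaling. The 8 genes were taken by symbol from the 55076 rows of the expression tables, and all 8 had a row. They were the pioneer factor Foxa1, the androgen targets Fkbp5 and Tmprss2, the 5α-reductases Srd5a1 and Srd5a2, the coactivator Ncoa2, the corepressor Ncor1 and the estrogen receptor Esr1. In OEx mice (Pbsn-Cre with 1 Rosa26 N1ICD allele), the probasin promoter drives Cre in prostatic epithelium, and Cre switches on the Notch1 intracellular domain. Ctrl mice carried the same Rosa26 N1ICD allele without Cre according to the study's methods, whereas the sample labels give them as wild type. All animals were males of 20 weeks, with 3 mice and 1 library per mouse in each group. The comparison of OEx with Ctrl asks whether androgen signaling differs when Notch1 is overactive in the gland. The probasin promoter that drives Cre is itself androgen-dependent, and the tissue was not sorted.

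Androgen receptor is a nuclear receptor that waits in the cytoplasm on heat shock proteins, binds testosterone or the more potent dihydrotestosterone, and then moves to DNA. The 5α-reductases make dihydrotestosterone from testosterone inside the gland. On DNA, the forkhead protein Foxa1 opens chromatin for the receptor, coactivators of the p160 family such as Ncoa2 recruit histone acetyltransferases, and Ncor1 recruits histone deacetylases. Canonical Notch signaling acts through the DNA-binding protein RBPJ.

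Expression was given as FPKM, fragments per kilobase of exon scaled to a library size, 1 value per gene and mouse. The library sizes behind the FPKM did not follow the recovered reads, as given below. Behind the values lay between 14772005 and 18655462 recovered reads per mouse, where 3 reads correspond to a CPM of 0.161 to 0.203, and such floors reflect counting error alone. The limma comparison used log2(FPKM + 1) and took in the 12833 rows that averaged at least 1 FPKM. A call needed an FDR under 0.05 over these rows (Benjamini-Hochberg) and a fold change over 2. On this scale the change of a gene at a few FPKM or less is understated. Notch1, whose values do not separate the transgene from the gene itself, was at 41.9, 47.6 and 78.9 FPKM in OEx mice 1 to 3 and at 5.18, 5.55 and 3.34 FPKM in Ctrl mice 1 to 3. The luminal keratin genes Krt8 and Krt18 had means of 309 and 311 FPKM in OEx mice and 416 and 869 FPKM in Ctrl mice, and the secretory protein gene Pbsn had means of 2785 and 15621 FPKM. Replicates 1 and 2 of each group resembled each other closely. Their reads differed by 3.67 (OEx) and 2.93 (Ctrl) times the counting noise (chi-square per degree of freedom across genes), against 50.4 to 86.7 times for pairs with replicate 3. They were kept as separate mice as labelled, and the labels do not say which mice were littermates, so p-values measure only the spread between these libraries. Ctrl mouse 3 also carried 16128 FPKM in total on 8 seminal vesicle genes, which summed to at most 4.36 FPKM in any other mouse.

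The start regions of the members were read from RefSeq promoter windows (GRCm38.p6, 250 bases before to 50 bases after the start). Windows were found for 7 of the 8 genes, with more than 1 start for Ncor1 and Esr1, 9 windows in all, and Ncoa2 is only named. The forkhead core TGTTTAC, searched on both strands, was present in 1 of the 9 windows and in 3.65% of all 32851 windows. The RBPJ core TGGGAA, searched likewise, was present in 2 windows of members and in 25.6% of all. The core AGAACA of the androgen response element was present, in 2 copies, in 1 window of the members and in 19.0% of all. The stretches that hold the forkhead or RBPJ core are shown on the strand of the gene with the core in capitals, because these are the letters that forkhead proteins and RBPJ are known to bind.
Foxa1, chr12:57546226-57546272: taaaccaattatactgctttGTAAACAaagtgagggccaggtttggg
Tmprss2, chr16:97611326-97611371: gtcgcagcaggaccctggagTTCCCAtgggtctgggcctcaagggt
Ncor1, chr11:62438712-62438757: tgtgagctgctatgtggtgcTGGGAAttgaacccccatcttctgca
All of these genes lie on the minus strand. The forkhead core of Foxa1 begins 141 bases before the RefSeq start used here, inside the span that GENCODE gives the gene. The RBPJ core of Tmprss2 begins 156 bases before its start. The Ncor1 stretch begins its core 222 bases before an internal start of the gene that lies within the transcribed region. These are matches of short letter strings and not measured binding.

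All 8 genes passed the filter on low values. Of these, 2 were called higher in OEx mice (Fkbp5 and Ncoa2) against 12.9% of all rows tested, and 2 were called lower (Tmprss2 and Srd5a2) against 15.7% of all rows. An FDR under 0.05 was reached by 7 of the 8, all but Foxa1, and for Srd5a1, Ncor1 and Esr1 the fold criterion was not met. Among all 12833 rows tested, 3941 reached this FDR as higher and 4680 as lower, so most rows did. The 3 OEx values did not overlap the 3 Ctrl values for any of the 8, which was so for 72.4% of all rows tested. The median log2 fold change was 0.48 over the members and -0.078 over all rows.

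**Figure D1:**
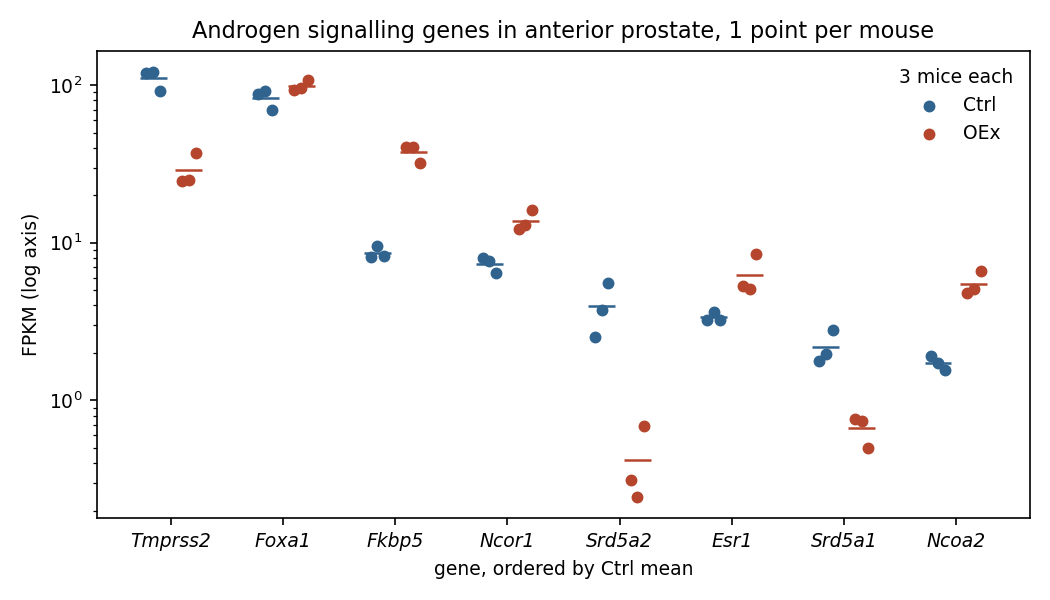
FPKM of the 8 genes on a log axis, with 1 point per mouse and a line at the mean of the 3 Ctrl (blue) or 3 OEx (red) mice, genes ordered by the Ctrl mean. Fkbp5 rose from 8.65 to 37.6 FPKM and Tmprss2 fell from 111 to 29.1 FPKM, while the points of Foxa1 lay close together in both groups.

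Of the androgen targets, Fkbp5 rose and Tmprss2 fell. Fkbp5 (chromosome 17, 28399094 to 28517527, minus strand) encodes a cochaperone of steroid receptors that androgens and glucocorticoids induce. It was at 40.3, 40.3 and 32.2 FPKM in OEx mice 1 to 3 and at 8.17, 9.55 and 8.22 FPKM in Ctrl mice 1 to 3. Every OEx mouse lay above every Ctrl mouse, and OEx mouse 3 was the lowest of its group. The mean was 37.6 ± 4.70 FPKM in OEx mice and 8.65 ± 0.783 FPKM in Ctrl mice (SD, n = 3), 4.35-fold higher, or 2.00 ± 0.119 (standard error) as a log2 fold change (limma FDR 4.04e-05). Of the tested rows, 90.2% to 93.2% lay below Fkbp5 in OEx mice and 59.5% to 63.0% in Ctrl mice, a rank that no scaling between mice can change.

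Tmprss2 (chromosome 16, 97564682 to 97611195, minus strand) encodes a serine protease of the apical membrane of luminal cells and is a classical androgen target. It was at 24.7, 25.2 and 37.3 FPKM in OEx mice 1 to 3 and at 119, 121 and 92.1 FPKM in Ctrl mice 1 to 3. The groups stood far apart, and mouse 3 of each group lay nearest to the other group. The mean was 29.1 ± 7.16 FPKM in OEx mice and 111 ± 16.1 FPKM in Ctrl mice (SD, n = 3), 3.81-fold lower, or -1.91 ± 0.190 (standard error) as a log2 fold change (limma FDR 2.04e-04). In bulk tissue, fewer cells of a type and less RNA per cell cannot be told apart. The summed level of 10 luminal marker genes moved in the same direction as Tmprss2, from 18157 to 21845 FPKM in Ctrl mice to 4087 to 7309 FPKM in OEx mice, with 4 of the 10 called lower and 1 higher, and its part in the result was not tested. Most of that sum is Pbsn. Without it, the other 9 genes summed to 3438 to 3987 FPKM in Ctrl mice and 2292 to 2811 FPKM in OEx mice, and 4 of the 10 had a positive log2 fold change. Neither these nor the other marker sums below were rescaled to equal total FPKM. That total was 253965 to 272224 in OEx mice and 467138 to 529972 in Ctrl mice, so a lower sum need not be a lower share.

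Fkbp5 lay above Tmprss2 in OEx mice 1 and 2 and below it in OEx mouse 3 and in all Ctrl mice. The ratio of Fkbp5 to Tmprss2 FPKM was 1.63, 1.60 and 0.862 in OEx mice 1 to 3 and 0.0689, 0.0789 and 0.0893 in Ctrl mice 1 to 3. This ratio was chosen after its values were seen and is given without a test.

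**Figure D2:**
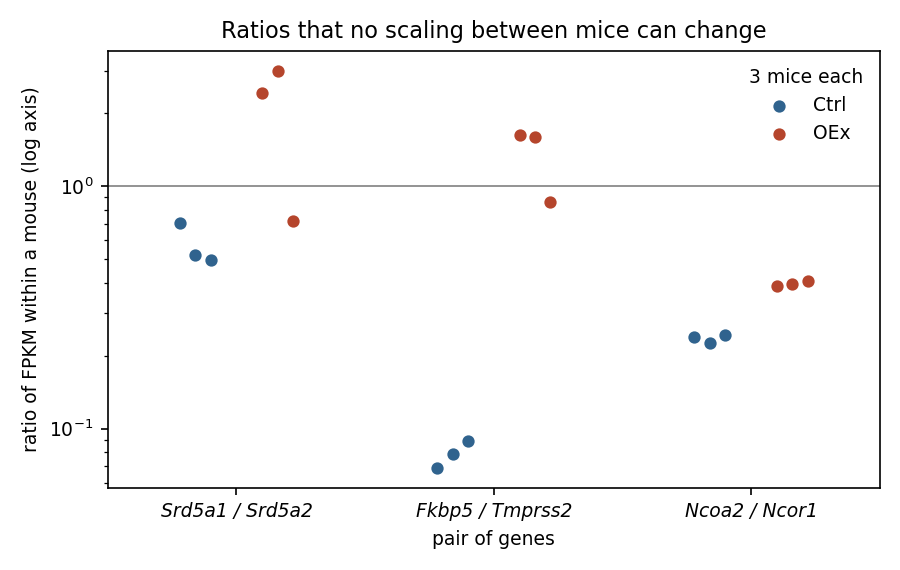
Ratios of FPKM within each mouse on a log axis for 3 pairs of genes, with 1 point per mouse and a line at 1. The ratio of Fkbp5 to Tmprss2 was at most 0.0893 in Ctrl mice (blue) and at least 0.862 in OEx mice (red), and the ratio of Srd5a1 to Srd5a2 of OEx mouse 3 (0.717) lay next to that of Ctrl mouse 1 (0.703).

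Of 45 listed androgen-response genes of prostate epithelium, 40 were tested, 6 were called higher (15.0%, near the 12.9% of all rows) and 11 lower (27.5%, against 15.7% of all rows), and their median was -0.16 on the log2 scale. With equal total FPKM, 16 were called higher and 8 lower, against 4458 higher and 504 lower of all 12833 rows. The higher genes included Msmb (log2 fold change 4.60), which encodes a secreted protein of prostatic fluid, the membrane peptidase gene Mme (3.60) and the fatty acid elongase gene Elovl7 (1.32). The lower genes included Sord (-4.55) for sorbitol dehydrogenase, Gnmt (-3.03) for glycine N-methyltransferase, Pbsn (-2.60) and the transcription factor gene Spdef (-2.47). Msmb was at 421 ± 50.8 FPKM in OEx mice and 16.5 ± 2.98 FPKM in Ctrl mice, and Sord was at 13.8 ± 7.23 and 327 ± 79.5 FPKM (SD, n = 3). Fkbp5 and Tmprss2 are themselves on this list.

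The study measured a set of androgen targets by qPCR and reported them as higher in OEx mice. This list was therefore already known to point upward. Of its 5 genes, 3 passed the filter and all 3 were called higher (against 12.9% of all rows). With equal total FPKM the same 3 were called higher, against 4458 of all 12833 rows. Beside Fkbp5 these were Rhou, for an atypical small GTPase, with a log2 fold change of 2.07 (limma FDR 1.19e-04), and the fibronectin gene Fn1 with 1.47 (limma FDR 0.0325). Fn1 lost its call with the replicate block (limma FDR 0.0800), without OEx mouse 1 (0.0965), OEx mouse 2 (0.0965), Ctrl mouse 1 (0.0921) or Ctrl mouse 2 (0.0901), with no filter on low values (0.0663) and with GC and length trends removed (0.0510). For Fn1 the groups overlapped, since OEx mouse 3 was at 9.68 FPKM and Ctrl mouse 3 at 10.5 FPKM. The kinase gene Sgk3 was under the filter, at 0.771, 0.727 and 0.720 FPKM in OEx mice and 0.257, 0.308 and 0.294 FPKM in Ctrl mice. Klkb1, for plasma prekallikrein, had 2, 2 and 15 reads in OEx mice 1 to 3 and 0 reads in each Ctrl mouse.

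Foxa1, which opens chromatin for the receptor, did not pass the test. The gene (chromosome 12, 57540628 to 57546916, minus strand) was at 93.6, 96.5 and 107 FPKM in OEx mice 1 to 3 and at 87.6, 92.1 and 69.6 FPKM in Ctrl mice 1 to 3. Every OEx value lay above every Ctrl value, with OEx mouse 1 and Ctrl mouse 2 almost level. The mean was 99.2 ± 7.29 FPKM in OEx mice and 83.1 ± 11.9 FPKM in Ctrl mice (SD, n = 3). The log2 fold change was 0.26 with a 95% interval of -0.044 to 0.57 (limma FDR 0.111). It was 0.082 without replicate 3 of both groups, 0.73 (FDR 0.00183) once trends with GC content and exon length were removed, and 1.15, a call, with every mouse scaled to the same total FPKM. By rank, 97.5% to 97.8% of tested rows lay below Foxa1 in OEx mice and 93.3% to 94.9% in Ctrl mice.

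Of 16 listed lineage and pioneer transcription factors, Foxa1 among them, 13 were tested. Of these, 2 were called higher (15.4%, near the 12.9% of all rows) and 5 lower (38.5%, against 15.7%). The median log2 fold change was -0.84. With equal total FPKM, 5 were called higher and 1 lower, against 4458 higher and 504 lower of all 12833 rows. Those called higher on the deposited FPKM were Foxp1 (1.48), another forkhead gene, and Klf5 (1.3). The lower ones were Spdef (-2.47), Gata2 (-1.56), Hoxb13 (-1.32), Creb3l1 (-1.26) and, named after its value was seen, Creb3l4 (-1.20). Gata2 and Hoxb13 encode partners of the androgen receptor on DNA. Hoxb13 was at 101 ± 12.6 FPKM in OEx mice and 252 ± 26.9 FPKM in Ctrl mice, and Gata2 was at 34.9 ± 10.6 and 102 ± 13.2 FPKM (SD, n = 3). Against Foxa1 in the same mouse, Tmprss2 stood at 0.264, 0.261 and 0.347 in OEx mice and at 1.36, 1.32 and 1.32 in Ctrl mice, a ratio chosen after its values were seen.

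Both 5α-reductase genes were low in the gland and lower in OEx mice. Srd5a2 (chromosome 17, 74016955 to 74047916, minus strand), the main prostatic isoenzyme in humans, was at 0.312, 0.245 and 0.690 FPKM in OEx mice 1 to 3 and at 2.54, 3.75 and 5.58 FPKM in Ctrl mice 1 to 3. OEx mice had 10, 9 and 20 reads of the gene, and Ctrl mice had 51, 78 and 136. The means of 0.416 ± 0.240 and 3.96 ± 1.53 FPKM (SD, n = 3) differ 9.51-fold, and the log2 fold change on the log2(FPKM + 1) scale was -1.77 (standard error 0.248, limma FDR 8.70e-04), a call. On recovered reads with limma-voom, which adds no such pseudocount but keeps the scaling of the FPKM, it was -3.33. Mouse 3 was the highest of both groups. Ctrl mouse 3 was also the highest in smooth muscle genes, but OEx mouse 3 was the lowest of its group. The summed level of 10 smooth muscle markers was 1610, 1590 and 3382 FPKM in Ctrl mice 1 to 3. In OEx mice 1 to 3 it was 605, 599 and 514 FPKM, with 9 of 10 called lower and none at 0 in all mice. The other stromal list did not follow, as 10 fibroblast markers summed to 277, 282 and 36.8 FPKM in OEx mice 1 to 3 and to 83.3, 81.0 and 150 FPKM in Ctrl mice 1 to 3, with no call. The sum of 6 basal cell markers was 228, 221 and 260 FPKM in Ctrl mice 1 to 3. In OEx mice 1 to 3 it was 9.26, 9.77 and 17.3 FPKM, highest in mouse 3 of both groups, with all 6 called lower. Their part in the result for Srd5a2 was not tested.

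Srd5a1 (chromosome 13, 69573449 to 69611442, minus strand), the isoenzyme with a wider tissue range, was at 0.758, 0.737 and 0.495 FPKM in OEx mice 1 to 3 and at 1.79, 1.96 and 2.78 FPKM in Ctrl mice 1 to 3. The reads behind them were 44, 49 and 26 in OEx mice and 65, 74 and 123 in Ctrl mice. Ctrl mice lay above OEx mice throughout, and here OEx mouse 3 was the lowest of its group. The log2 fold change was -0.92 (95% interval -1.31 to -0.54, limma FDR 0.00216), under the fold criterion on the log2(FPKM + 1) scale. With a pseudocount of 0.1 it was -1.57, with limma-voom on reads it was -1.71, and both were calls. With equal total FPKM it was -0.43 (limma FDR 0.0356), and without the 20 most abundant genes in the total it was -0.57. With GC and length trends removed it was -0.50 (limma FDR 0.0405), and none of these was a call. Exons of Srd5a1 overlap those of Gm17108, and exons of Srd5a2 overlap those of CT025731.1, both on the same strand, so reads there could be split between them.

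The balance of the isoenzymes within a mouse was compared as a ratio of Srd5a1 to Srd5a2 FPKM. It was 2.43, 3.0 and 0.717 in OEx mice and 0.703, 0.523 and 0.499 in Ctrl mice. The groups did not overlap, but OEx mouse 3 stood next to Ctrl mouse 1. The mean log2 ratio differed by 1.61, with a two-sided exact permutation p of 0.1, the smallest that the 20 assignments of 3 of 6 mice can give. The ratio rests on at most 20 reads of Srd5a2 per OEx mouse.

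The third enzyme of the family, Srd5a3, which acts in protein glycosylation, was at 4.12 ± 0.216 FPKM in OEx mice and 4.90 ± 0.267 FPKM in Ctrl mice (SD, n = 3; log2 fold change -0.21, limma FDR 0.0745). Of 41 listed genes of androgen synthesis and inactivation, 17 were tested. None was called higher (against 12.9% of all rows) and 6 were called lower (35.3%, against 15.7%). With equal total FPKM, 2 were called higher and 3 lower, against 4458 higher and 504 lower of all 12833 rows. The list's median log2 fold change was -0.35. The lower genes with the largest changes were Srd5a2, Hsd17b14 (-1.78) for a 17β-hydroxysteroid dehydrogenase, the steroid hydroxylase gene Cyp7b1 (-1.75) and the cytochrome b5 gene Cyb5a (-1.65). Cyb5a was at 26.7 ± 1.11 FPKM in OEx mice and 86.0 ± 3.06 FPKM in Ctrl mice. By limma with no fold criterion, 3 genes of the list passed an FDR of 0.05 as higher and 9 as lower. Over all 12833 rows these numbers were 3941 and 4680.

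Ncoa2 rose in OEx mice. This p160 coactivator gene (chromosome 1, 13139105 to 13374083, minus strand) was at 4.77, 5.11 and 6.59 FPKM in OEx mice 1 to 3 and at 1.92, 1.74 and 1.56 FPKM in Ctrl mice 1 to 3. The groups did not overlap, and mouse 3 was the highest of the OEx and the lowest of the Ctrl group. The mean was 5.49 ± 0.970 FPKM in OEx mice and 1.74 ± 0.182 FPKM in Ctrl mice (SD, n = 3), 3.16-fold higher, or 1.24 ± 0.133 (standard error) as a log2 fold change (limma FDR 2.77e-04). Of its p160 relatives, Ncoa1 was at 4.35 ± 0.406 and 4.31 ± 0.577 FPKM (log2 fold change 0.014, limma FDR 0.921). Ncoa3 was at 7.36 ± 0.0813 and 5.08 ± 0.272 FPKM (log2 fold change 0.46, limma FDR 0.00226), under the fold criterion.

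Ncor1 (chromosome 11, 62316426 to 62458541, minus strand) encodes the corepressor that carries histone deacetylase 3 to unliganded or antagonist-bound receptors. It was at 12.3, 12.9 and 16.2 FPKM in OEx mice 1 to 3 and at 8.03, 7.70 and 6.41 FPKM in Ctrl mice 1 to 3. All OEx mice were above all Ctrl mice, and mouse 3 again lay farthest from the other group. The means of 13.8 ± 2.07 and 7.38 ± 0.856 FPKM (SD, n = 3) differed 1.87-fold, and the log2 fold change of 0.82 (95% interval 0.50 to 1.13, limma FDR 0.00169) stayed under the fold criterion. Exons of Ncor1 overlap those of Ttc19 and Pigl on the other strand, and whether counting used strand is not given in the sources used here.

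Within a mouse, Ncoa2 stood higher relative to Ncor1 in OEx than in Ctrl mice. The ratio of Ncoa2 to Ncor1 FPKM was 0.388, 0.396 and 0.408 in OEx mice and 0.239, 0.226 and 0.243 in Ctrl mice. The ratio varied little within either group and the groups were apart. It was chosen after its values were seen and is given without a test.

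Long transcripts and those of low GC content were higher in OEx mice across all genes. The median log2 fold change rose from -0.50 among the 3116 tested genes with the shortest exons to 0.34 among the 3116 with the longest, and it was 0.53 among the 3116 of lowest GC content and -0.46 among the 3116 of highest. Ncoa2, Ncor1 and Esr1 were longer than 98.3%, 96.6% and 97.2% of the tested genes. With the trends of GC content and exon length removed from each mouse, the log2 fold change was 0.81 for Ncoa2 (limma FDR 5.01e-04), no longer a call, 0.49 for Ncor1 (limma FDR 0.00267) and 0.094 for Esr1 (limma FDR 0.584). Fkbp5 and Tmprss2, longer than 90.8% and 82.2%, kept 1.99 and -1.98.

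**Figure D3:**
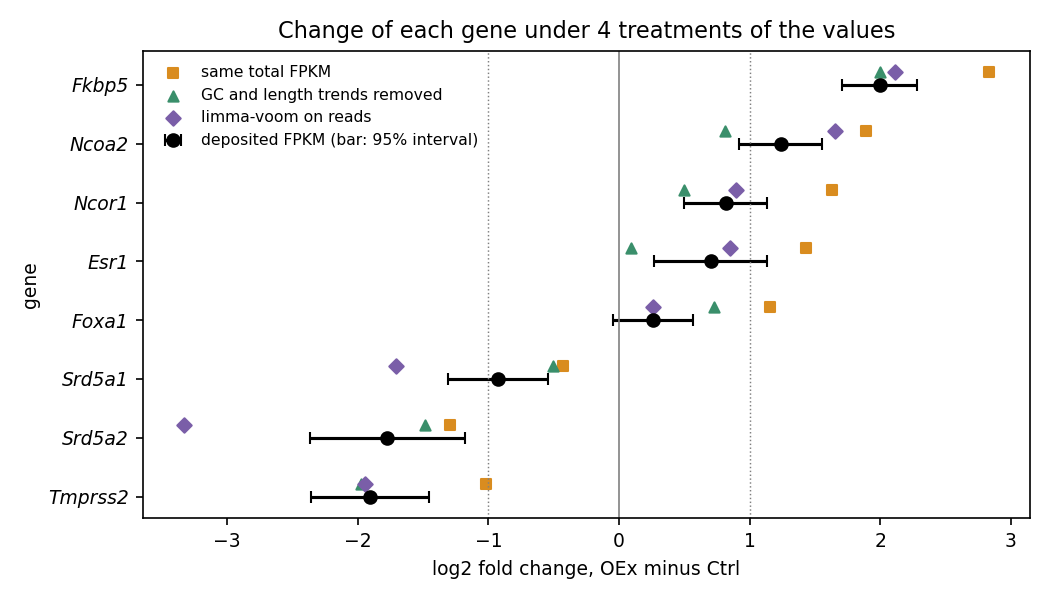
Log2 fold change of OEx minus Ctrl for each gene, with the value on the deposited FPKM (black, bar for the 95% interval), with equal total FPKM (orange), with GC and length trends removed (green) and with limma-voom on recovered reads (purple), and dotted lines at a fold of 2. The limma-voom values keep the scaling of the deposited FPKM between mice. Every marker of Fkbp5 lay at 1.99 or above and every marker of Tmprss2 at -1.02 or below, while Esr1 ran from 0.094 to 1.43.

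Coregulators beyond these were counted by list. Of 35 tested coactivator genes (36 listed), 6 were called higher (17.1%, near the 12.9% of all rows) and 2 lower (5.71%, against 15.7%). The median log2 fold change was 0.46. With equal total FPKM, 22 were called higher and 0 lower, against 4458 higher and 504 lower of all 12833 rows. Ncoa4, which also directs ferritin to autophagy, had a log2 fold change of 2.63, the RNA helicase gene Ddx5 1.60, and the histone methyltransferase genes Kmt2a and Kmt2d 1.44 and 1.35. Ncoa4 was at 52.7 ± 4.10 FPKM in OEx mice and 7.65 ± 0.587 FPKM in Ctrl mice (SD, n = 3). The lower genes were Tgfb1i1 (-1.47), which smooth muscle also expresses and which was highest in Ctrl mouse 3, and the arginine methyltransferase gene Prmt1 (-1.11). Of 22 tested corepressor genes (28 listed), 6 were called higher (27.3%, against 12.9% of all rows) and none lower (against 15.7%). The median was 0.58, and with equal total FPKM 15 were called higher and 0 lower (4458 and 504 of all rows). Those called higher on the deposited FPKM included Heyl (4.52), a Notch target, the cyclin gene Ccnd1 (2.14), Bcl6 (1.37) and Nrip1 (1.33). By limma with no fold criterion, 14 corepressor genes passed an FDR of 0.05 as higher and 3 as lower. Over all 12833 rows these numbers were 3941 and 4680.

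Among the heat shock proteins and cochaperones that hold the receptor ready for hormone, Fkbp5 rose in every setting, while the fall of its rival Fkbp4 depended on the scaling. Fkbp4, whose product favors hormone binding by the androgen receptor, was at 126 ± 12.7 FPKM in OEx mice and 257 ± 24.4 FPKM in Ctrl mice (SD, n = 3; log2 fold change -1.02, limma FDR 3.47e-04). This call was lost with equal total FPKM (-0.12, limma FDR 0.472), with the 20 most abundant genes left out of that total (-0.37), with equal upper quartiles (-0.74), with GC and length trends removed (-0.44), and without OEx mouse 1 (-0.97), OEx mouse 2 (-0.99), Ctrl mouse 1 (-0.98) or Ctrl mouse 2 (-0.98). Of 22 tested chaperone genes (23 listed), 3 were called higher (13.6%, near the 12.9% of all rows) and 5 lower (22.7%, against 15.7%). The median was -0.71. With equal total FPKM, 5 were called higher and 0 lower, against 4458 higher and 504 lower of all 12833 rows. Beside Fkbp5, the cyclophilin gene Ppid (1.86) and Hsp90aa1 (1.15), for an inducible form of Hsp90, rose. Hspa1a (-1.90), Hspa1b (-1.58), the ubiquitin ligase gene Stub1 (-1.52) and Bag3 (-1.42) fell with Fkbp4. Hspa1a was at 13.0, 11.3 and 51.9 FPKM in Ctrl mice 1 to 3, so Ctrl mouse 3 holds much of its level. Hspa1a and Hspa1b are near-identical copies and their reads are uncertain between them.

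Esr1 (chromosome 10, 4611593 to 5005614, plus strand) encodes estrogen receptor alpha, which in the prostate is known mainly from stroma. It was at 5.29, 5.08 and 8.43 FPKM in OEx mice 1 to 3 and at 3.25, 3.65 and 3.24 FPKM in Ctrl mice 1 to 3. OEx values lay above Ctrl values, with OEx mouse 3 well above the rest. The means were 6.27 ± 1.87 and 3.38 ± 0.234 FPKM (SD, n = 3), and the log2 fold change was 0.70 (95% interval 0.27 to 1.13, limma FDR 0.0124), under the fold criterion. OEx mouse 3 had the lowest summed level of 10 fibroblast markers (36.8 FPKM, against up to 282 FPKM in the other OEx mice and 81.0 to 150 FPKM in Ctrl mice). The 10 smooth muscle markers summed to 514 to 605 FPKM in OEx mice and 1590 to 3382 FPKM in Ctrl mice. The part of stroma in the result for Esr1 was not tested.

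Esr2, for estrogen receptor beta of the epithelium, was at 1.44, 1.39 and 3.67 FPKM in OEx mice and at 0.570, 0.803 and 0.313 FPKM in Ctrl mice, also not a call (0.96 as a log2 fold change, limma FDR 0.0233). Of 13 tested genes on a list of steroid and related nuclear receptors (17 listed), none was called higher (against 12.9% of all rows). Only Esrra (-1.26), for an orphan receptor of energy metabolism, was called lower (7.69%, against 15.7%). The median was 0.27. With equal total FPKM, 5 were called higher and 0 lower, against 4458 higher and 504 lower of all 12833 rows. With no fold criterion, 5 were higher and 4 lower at an FDR under 0.05 by limma (3941 and 4680 of all rows). With limma-voom, 1 was called higher and 2 lower. The glucocorticoid receptor gene Nr3c1, whose product also induces Fkbp5, was at 3.52 ± 0.228 and 3.16 ± 0.250 FPKM (SD, n = 3; log2 fold change 0.12, limma FDR 0.300). Of 7 tested estrogen-response genes (13 listed), Wnt4 (2.18) and Ccnd1 (2.14) were called higher (28.6%, against 12.9% of all rows). Igfbp5 (-1.16) was called lower (14.3%, near the 15.7% of all rows). The median was 0.31, and with equal total FPKM 4 were called higher and 0 lower (4458 and 504 of all rows).

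**Figure D4:**
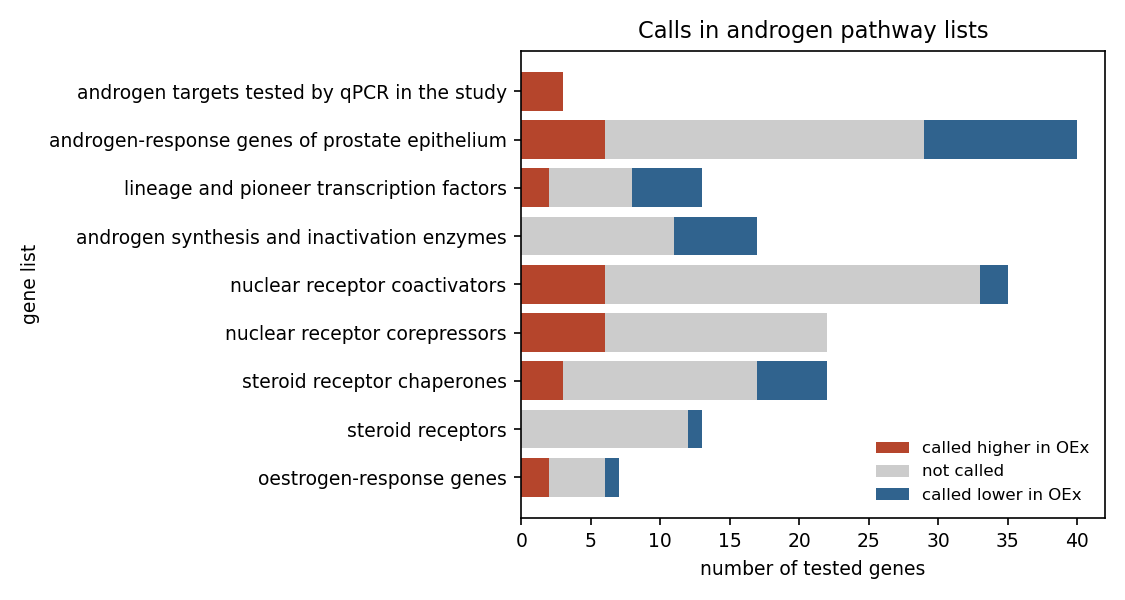
Number of tested genes called higher in OEx mice (red), not called (grey) and called lower (blue) in each list of the androgen pathway. On the deposited FPKM plotted here, androgen-response genes had 6 higher and 11 lower calls (16 and 8 with equal total FPKM). Likewise the enzymes had 0 and 6 (2 and 3) and the corepressors 6 and 0 (15 and 0). All 12833 rows had 1653 and 2021 (4458 and 504).

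FPKM are per length, so the levels of the 8 genes can be ordered. In Ctrl mice the order of the means was Tmprss2, Foxa1, Fkbp5, Ncor1, Srd5a2, Esr1, Srd5a1 and Ncoa2, and the ranges over mice overlapped for Srd5a2 with Esr1 and with Srd5a1, and for Srd5a1 with Ncoa2. In OEx mice it was Foxa1, Fkbp5, Tmprss2, Ncor1, Esr1, Ncoa2, Srd5a1 and Srd5a2, and the ranges overlapped for Fkbp5 with Tmprss2, for Esr1 with Ncoa2 and for Srd5a1 with Srd5a2. Foxa1 thus led in OEx mice where Tmprss2 led in Ctrl mice, by 1.32 to 1.36 times in each Ctrl mouse.

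The size of each change depends on how mice are scaled. Deposited FPKM summed to between 253965 and 272224 in OEx mice and between 467138 and 529972 in Ctrl mice. The library sizes behind the FPKM were 18051143 to 22868193 in OEx mice and 12510318 to 15195710 in Ctrl mice. Recovered reads were 14772005 to 17009325 in OEx mice and 17236735 to 18655462 in Ctrl mice. The deposited scaling thus set OEx values lower relative to Ctrl values than the recovered reads would. Scaling every mouse to the same total moved the median change of all tested rows from -0.078 to 0.65 on the log2 scale, and the calls from 1653 higher and 2021 lower to 4458 higher and 504 lower. The changes of members relative to that median moved less, from 2.07 to 2.18 for Fkbp5, from -1.83 to -1.68 for Tmprss2, from -1.70 to -1.95 for Srd5a2, and from 1.32 to 1.24 for Ncoa2, while Esr1 stayed at 0.78. No member changed sign in any of the 18 other settings in which it was fitted.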

How the data were processed

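AP of 3 OEx and 3 Ctrl mice were sequenced (total RNA, TruSeq, Illumina HiSeq), and the authors deposited FPKM values in 1 table per mouse. The submitters' processing notes name HISAT2 2.0.5, featureCounts 1.5.0-p3, StringTie 1.3.3b and CASAVA, and the genome build is not given in the sources used here. Whole reads were recovered from FPKM and GENCODE exon lengths (GRCm38, 53710 rows matched by symbol, tolerance 0.05 reads), and at least 96.9% of values under 1000 reads in a mouse came out whole. Groups were compared with limma 3.58.1 (trend, R 4.3.3) on log2(FPKM + 1), tested on simulated data. Alternatives changed scaling, pseudocount, filter and threshold, left out mice, used limma-voom on reads, or added a replicate block. The limma-voom fit took the library sizes behind the FPKM, so it kept their scaling between mice and does not check it. Removing both libraries numbered 3, and removing GC and length trends (lowess, span 0.3), were added after seeing the data. Members and lists were chosen with earlier results of these data known. Besides members, up to 4 called genes per list and direction with the largest changes were named, with relatives of members, qPCR targets and tissue checks fixed by name. Some genes are not reported here. Python 3.11.15, numpy 2.4.6, pandas 2.3.3 and matplotlib 3.10.9 were used.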

Additional observations from a re-analysis of the deposited data

How the results depend on the processing

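Fkbp5 and Tmprss2 kept their calls in all 18 other settings, with log2 fold changes of 1.94 to 2.84 and -2.22 to -1.02, and Srd5a2 in the 17 in which it was fitted (-3.33 to -1.29). Ncoa2 lost its call in 1 of 17. Calls were gained by Srd5a1 in 5 settings, Ncor1 in 4, Esr1 in 3 and Foxa1 in 1, and no value changed sign. The causes were not tested. Deviations from the group means had a mean r of -0.230 for same-numbered mice and 0.0951 for other pairs across genes. Because replicates 1 and 2 of each group were so alike, this comparison mainly contrasts mouse 3 with them. It cannot show whether the numbers mark pairs. The numbers were not taken as pairs in the main fit. A replicate block left 1611 rows higher and 1986 lower with the same members called.

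With the same total FPKM, 5 members were called higher, and over all rows 4458 were higher and 504 lower. The higher and lower calls were 2 and 3 for enzymes, 5 and 1 for lineage factors, 22 and 0 for coactivators, 4 and 0 for estrogen-response genes, 5 and 0 for chaperones and 5 and 0 for steroid receptors, with 16 androgen-response genes and 15 corepressors higher. Without the 20 most abundant genes in the total, 4 members were higher, and 3477 rows were higher and 717 lower. There, calls were 4 and 1 for lineage factors, 17 and 0 for coactivators, 5 and 0 for chaperones and 3 and 0 for steroid receptors, with 1 enzyme, 12 androgen-response genes and 13 corepressors higher and 0 estrogen-response genes lower. With equal upper quartiles, 1326 rows were lower, 10 and 1 coactivators and 1 and 0 steroid receptors were called, and 1 enzyme and 10 corepressors were higher and 0 estrogen-response genes lower.

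At a mean of at least 5 FPKM, Srd5a1, Srd5a2, Ncoa2 and Esr1 were left out, 1 member was higher and 1 lower, 681 rows were higher, 3 enzymes were lower and 1 and 3 lineage factors were called. With no fold criterion, 4 members were higher, and 3941 rows were higher and 4680 lower. There, higher and lower calls were 3 and 9 for enzymes, 12 and 17 for androgen-response genes and 4 and 8 for lineage factors. They were 19 and 5 for coactivators, 14 and 3 for corepressors and 5 and 15 for chaperones. Steroid receptors had 5 and 4, and estrogen-response genes 3 and 3. With GC and length trends removed, 1 member was higher, 1181 rows were lower, 1 enzyme and 3 steroid receptors were higher, and 2 lineage factors, 1 coactivator and 2 chaperones were lower. Pseudocounts of 0.1 and 0.01 and limma-voom each gave 1 enzyme and 1 steroid receptor higher and 2 estrogen-response genes and 2 steroid receptors lower. Without both libraries numbered 3, 1 corepressor, 0 estrogen-response genes and 2 steroid receptors were lower. Leaving out 1 mouse at a time gave 0 to 1 corepressors lower, 0 to 1 estrogen-response genes lower, and 0 to 1 steroid receptors higher and 1 to 2 lower. Without Ctrl mouse 1, Srd5a1 was called (-1.01).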

Other observations

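The genes whose levels followed each member most closely over the 6 mice were sought among the 4537 tested genes that averaged at least 10 FPKM, as a description. All such values are high because the groups stand apart and the mice share their scaling. Nearest to Foxa1 was the sorting receptor gene Sorl1 (Pearson r 0.999). Nearest to Fkbp5 were the transcription factor gene Sox9 and the peptidase gene Dpp4 (both 0.997). Nearest to Tmprss2 were Gstm2, for a glutathione transferase (0.9999), and the inositol kinase gene Itpk1 (0.9997). Ncoa2 was followed by the phosphatase gene Ptprj (0.999), Ncor1 by the ubiquitin ligase gene Huwe1 (0.999) and Esr1, among others, by the kinase gene Stk39 (0.992). Srd5a1 was followed by the RNA polymerase subunit gene Polr2k (0.998) and Srd5a2 by the glutaredoxin gene Glrx3 (0.997).

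Of the 8 immune markers, only 4 passed the filter and were tested, and none of these was called in either direction. Their sum over 8 genes was 205, 189 and 16.04 FPKM in OEx mice 1 to 3 and 30.6 to 70.6 FPKM in Ctrl mice, so OEx mouse 3 differed here from both other OEx mice. The sum of 6 endothelial markers was 7.51 to 9.02 FPKM in OEx mice and 19.4 to 26.0 FPKM in Ctrl mice, with 1 gene called lower.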
